A study of Mus musculus with 122 samples.

Results

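LLC is a chimeric protein that joins the N terminus and the zinc fingers of CTCFL to the C terminus of CTCF, which is thus its only CTCF domain. Its binding was followed by FLAG ChIP-seq in mouse embryonic stem cells, taking the libraries whose titles name LLC with the treatment D or ID. These are 4 of the 32 FLAG ChIP samples and of the 122 samples of the series, with 2 replicates in LLC D and 2 in LLC ID.

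CTCF binds DNA through a row of zinc fingers and, with the cohesin ring, anchors chromatin loops and the borders of chromatin domains. Male germ cells normally make a second protein of this family, the paralog CTCFL (BORIS). Its zinc fingers are much like those of CTCF, whereas its ends are unrelated. Chimeras that exchange the ends ask which domains decide where such a protein binds.

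The cells were E14Tg2a embryonic stem cells in which an auxin-inducible degron on endogenous CTCF and Tir1 at Rosa26 let the auxin analog IAA degrade it. Each line carried a doxycycline (Dox) inducible transgene at Tigre, with FLAG at its N terminus and mRuby2 at its C terminus, in homozygous clones whose number is not given in the sources used here. LLC D cells received Dox at 1 µg/ml, with endogenous CTCF present, and LLC ID cells received the same Dox together with 500 µM IAA. The labels give 48 h for LLC and for CLL, the chimera with the CTCF N terminus as its only CTCF domain. They give 24 h for CTCF, CTCFL, CLC (the CTCFL zinc fingers between both CTCF ends) and LCL (the CTCF zinc fingers between both CTCFL ends), a difference the study's methods do not make. A difference between LLC and these 4 transgenes therefore cannot be told apart from the time of treatment. LLC protein was driven by Dox and its level was not analysed here. Nothing in the LLC libraries measures endogenous CTCF, so its loss in LLC ID was not checked.

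The authors called peaks in each library, and the lists give positions, fold enrichment over background and -log10 q, where q is the false discovery rate. No read numbers are listed, and ChIP depth is therefore unknown. Counted over the autosomes (1 to 19) and X, LLC D had 3731 peaks in replicate 1 and 11450 in replicate 2, after joining overlapping entries of the list. LLC ID had 9441 in replicate 1 and 12519 in replicate 2. Replicate 1 of LLC D stood apart from the other 3 libraries, and the D and ID libraries overlapped in peak number. The difference in mean log2 peak number was 0.734 (two-sided exact permutation test, p = 0.667, where 0.333 is the smallest p that 2 against 2 libraries can give). This difference was 0.129 without replicate 1 and 1.34 without replicate 2. The LLC and CLL lists reach down to a -log10 q of 1.3 (q of 0.0496), whereas those of CTCF, CTCFL, CLC and LCL start at 2.00 (q of 0.00998). The labels do not say that replicates were separate cultures, so every p-value here measures only the spread between libraries.

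Peaks of the 2 replicates that shared at least 1 bp were joined into 1 region, here called a site. LLC had 3305 sites in D and 6621 in ID, in each treatment fewer than the other transgenes apart from CLL in D. CLL had 1908 sites in D and 15633 in ID, and CLC had 7599 and 17876. CTCFL reached 22294 and 25097 sites, CTCF 37154 and 30317, and LCL 27579 and 34698. The larger LLC number in ID depended on the lists taken, since with the 3731 top peaks of each LLC library the direction turned, with 1964 sites in D and 1822 in ID. A -log10 q of at least 5 left 1091 in D and 2476 in ID. Of the LLC D sites, 2511 (76.0%) were also LLC ID sites, which is 38% of the larger ID set (2516 sites), and with equal numbers of top peaks 38.1% of D sites were shared. The median site had a lower -log10 q of its replicates of 4.16 in LLC D and 4.24 in LLC ID. The same median was 3.79 for CLL D, 6.54 for CLC D and 7.08 for CLL ID, and 11.3 for CTCFL ID, 13.2 for CLC ID and 26.5 for CTCF ID. By -log10 q, LLC sites were thus weak, as were those of CLL D. Fold enrichment did not set LLC apart in this way. Its median over peaks was 5.01 and 4.49 in LLC D and 4.82 and 4.42 in LLC ID. It was 4.36 and 4.59 in LCL D and 4.76 and 4.65 in LCL ID, but 7.72 and 8.15 in CTCF ID.

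Most LLC sites lay in CA repeats. The window reaching 50 bp to either side of the summit, in the replicate of higher -log10 q, was called a CA window where at least 40% of its dinucleotide steps were CA, AC, TG or GT. In LLC D, 3146 sites (95.2%) were in CA windows, and in LLC ID 4980 (75.2%), against 3.51% and 3.35% of equally long windows 1000 bp away. By library, the share of peaks in CA windows was 94.0% and 86.5% in LLC D and 76.5% and 69.2% in LLC ID, so that both D libraries lay above both ID libraries. CLL D had 94.6% of its sites in CA windows and CLL ID 33.6%. The CLL D value rested on replicate 1, the smallest list, since CA windows held 94.1% of its peaks but 57.4% of those of replicate 2, below both LLC ID libraries. The share was 38.8% in CLC D, 8.14% in CLC ID, 13% in CTCFL ID, 4.89% in CTCF ID and 3.83% in LCL ID. In mock-treated ID controls of an RNase experiment, labelled 48 h as LLC was, CA windows held 64.5% and 51.2% of CTCFL peaks and 24.2% and 22.4% of CTCF peaks, against 16.1% and 17.1% (CTCFL ID) and 7.16% and 7.52% (CTCF ID) in the libraries labelled 24 h. The CTCFL libraries labelled 48 h were thus nearer to LLC ID than those labelled 24 h, and CA windows were not particular to LLC.

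**Figure D1:**
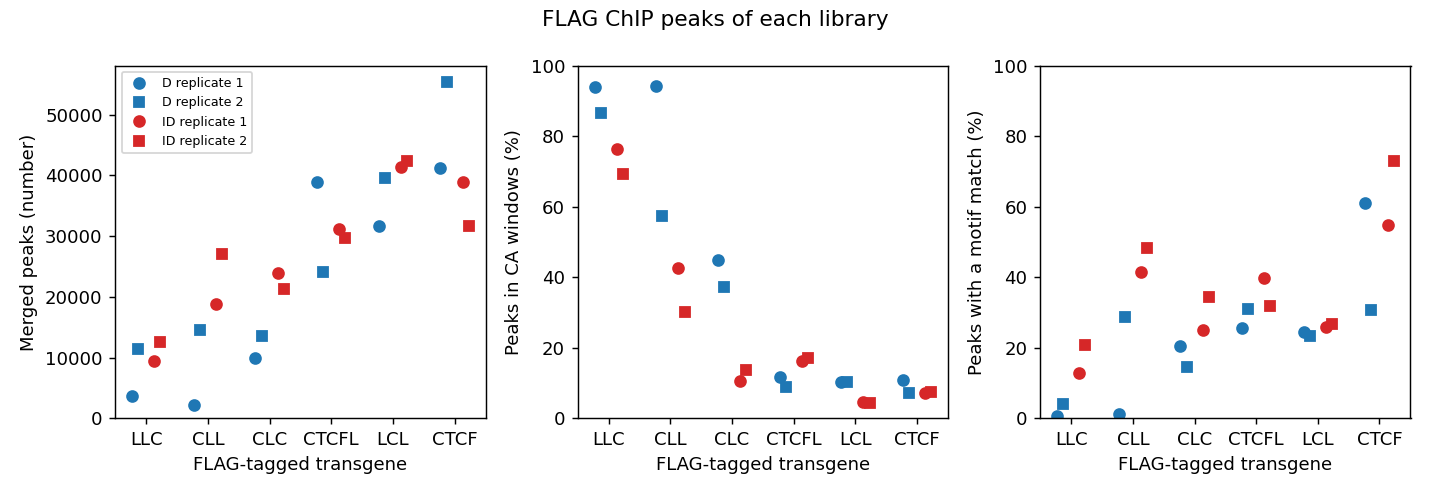
Merged FLAG ChIP peaks (number), peaks in CA windows (percent) and peaks with a CTCF-family motif match (percent) for each of the 24 libraries of 6 transgenes, 1 point a library, with D in blue, ID in red, circles for replicate 1 and squares for replicate 2. LLC D replicate 1 has 3731 peaks, 94.0% of them in CA windows, and LLC ID replicate 2 has 12519 peaks, 69.2% of them in CA windows.

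The CTCF-family motif was rare at LLC D sites. A matrix of 14 positions with the consensus CCACCAGGGGGCGC was derived from sites shared by CTCF ID and CTCFL ID. Both strands were searched, and a match counted above a score that 5.00% of windows 1000 bp away from the sites exceed by construction. A match was found at 15 LLC D sites (0.454%) and at 1244 LLC ID sites (18.8%). It was present at 42.4% of CTCFL ID, 36.5% of CLC ID, 53.2% of CLL ID and 62.3% of CTCF ID sites. By library, 0.643% and 3.97% of LLC D peaks and 12.7% and 20.8% of LLC ID peaks had a match. The numbers behind these shares were 24 and 455 peaks in D and 1201 and 2602 in ID, so the groups did not overlap. Their mean log2 difference was 4.08 (exact permutation test, p = 0.333, again the smallest possible). Peaks outside CA windows numbered 224 and 1551 in D and 2217 and 3850 in ID, a log2 difference of 2.31 (exact permutation test, p = 0.333).

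The sites that LLC had in both treatments were almost all CA repeats, and the motif came with the sites seen in ID alone. Of the 2516 LLC ID sites that overlapped an LLC D site, 21 (0.835%) had a motif match and 95.7% were in CA windows. Of the 4105 others, 1223 (29.8%) had a match and 62.7% were in CA windows. The requirement of both D replicates set part of this difference. Of the 1244 LLC ID sites with a match, 24 (1.93%) had a peak in LLC D replicate 1 and 375 (30.1%) in replicate 2. Of the 4980 LLC ID sites in CA windows, 49.6% had a peak in LLC D replicate 1 and 89.5% in replicate 2. In each D library the CA sites were thus met more often than the motif sites.

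Outside CA windows, LLC ID had 1641 sites, and 1215 of them (74.0%) carried the motif. These sites were stronger than those in CA windows, with a median lower -log10 q of 5.10 against 4.02, a difference that lay mainly in replicate 2 (median 9.95 against 5.35) and less in replicate 1 (5.53 against 4.84). Their median GC content was 55.4%, against 39.6% in CA windows. LLC D kept 159 sites outside CA windows, of which 13 (8.18%) had the motif.

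At matched ID sites, the base under zinc finger 7 was less often A for LLC than for CTCFL, CLC, CLL and CTCF. Position 3 of the motif was A at 798 of the 1244 LLC ID matches (64.1%). It was A at 72.1% of CTCFL ID, 70.7% of CLC ID, 70.5% of CLL ID and 82.1% of CTCF ID matches. At the LLC ID matches, G stood at position 3 in 17.8% and T in 15.5%, against 10.1% and 14.6% for CTCFL ID. LLC ID matches also kept closer to G at position 8, with 76.8% against 59.8% for CTCFL ID, and to C at position 14, with 69.9% against 57.7%. In D sets A was at 46.7% of LLC (7 of 15), 61.3% of CLL (19 of 31), 67.4% of CLC and 68.3% of CTCFL matches, so CLL D was below LLC ID. These shares describe pooled sites and were not tested over libraries. Of the 1244 LLC ID matches, 1240 were also CTCFL ID sites, 1240 CLL ID, 1239 CLC ID and 1236 CTCF ID sites. They are thus set against larger sets that hold nearly all of them. Whether the base shares differ at sites of equal strength was not tested.

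The 10 strongest LLC ID promoter sites, ranked by the lower -log10 q of both replicates, fell into 2 kinds. Sites centered no more than 3 kb from a transcription start were taken as promoter sites. The first kind was at Gm33838, Aida, Gm10801, Gm10800, Gm28438, Gm10717 and Gm21738. These 7 sites had no motif match and were not in CA windows, were LLC D sites as well, and held a peak in 20 of the 20 libraries of the other transgenes. At the site in an intron of the noncoding gene Gm33838 (chr9:35305091-35305651), -log10 q was 114 and 106 in the LLC D replicates and 114 and 109 in the LLC ID replicates. At the site in an intron of Aida (chr1:183299015-183299688), which encodes an axin interactor, it was 74.0 and 98.1 in D and 86.6 and 83.4 in ID. At both genes the treatments overlapped, whereas at Gm10800 and Gm21738 both D replicates lay above both ID replicates. The lower -log10 q at Gm33838 was 105 for CTCFL ID and 99.2 for CTCF ID, close to that of LLC. The bases at the summits of Gm33838, Gm10800 and, in LLC D, Gm21738 share a run. Whether sites of this kind are repeated sequence was not tested. With a peak in every library, these 7 sites are not read as binding particular to LLC or to these genes.

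The second kind was at Stra8, Arhgap23 and Rasl10a, each with a motif match. Stra8 (ENSMUSG00000029848) is needed for entry into meiosis, and its site lies in an intron 1165 bp from a start (chr6:34921800-34922549). Its -log10 q was 10.8 and 41.9 in LLC D and 26.1 and 45.3 in LLC ID, so the treatments overlapped there. The site of Arhgap23 (chr11:97489467-97490028, intron) had 4.76 and 9.53 in D and 25.2 and 32.3 in ID. Rasl10a encodes a Ras-like small GTPase, and its site (chr11:5059782-5060337, coding exon) had 3.43 and 14.4 in D and 22.1 and 54.7 in ID. As these sites were chosen by their ID values, a higher level in ID than in D is favoured by the choice. CTCFL ID was stronger at all 3, with lower -log10 q of 115 at Stra8, 78.7 at Arhgap23 and 70.3 at Rasl10a.

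The matched sequences at these 3 genes are shown because they are the motifs under the strongest LLC promoter sites that carry one, with the motif in capitals and 8 flanking bases on each side. In GRCm38 they lie at chr6:34922108-34922137 on the minus strand for Stra8, at chr11:97489746-97489775 on the plus strand for Arhgap23 and at chr11:5060015-5060044 on the plus strand for Rasl10a.
Stra8: ccacacatCCTCTAGGAGTCGCaagtgacc
Arhgap23: cctagcatCCACTAGAGGGCGCtgccgacc
Rasl10a: accctccgCCTGCAGGGGGCGCtgcaccca

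Among the 10 strongest LLC ID promoter sites with a motif match, a list chosen after the data were seen, the next 7 were at Slc44a4, Alkbh2, Atad5, Dnajc11, Gm7972, Rint1 and Sh3glb1. Alkbh2, which repairs alkylated DNA, had no peak at its site (chr5:114128092-114128573) in LLC D replicate 1, and a -log10 q of 15.0 in D replicate 2 and of 19.9 and 39.7 in ID. Atad5, which unloads the replication clamp PCNA, likewise had no peak (chr11:80086858-80087395) in D replicate 1, and 10.4 in D replicate 2 and 19.7 and 32.7 in ID. Dnajc11, a mitochondrial cochaperone, had 4.90 and 10.3 in D and 19.5 and 36 in ID (chr4:151933254-151933830). Rint1, which acts in transport between the endoplasmic reticulum and the Golgi, had none in D replicate 1, 15.4 in D replicate 2, and 19.2 and 34 in ID (chr5:23787374-23787836). The ranking by ID values favours ID over D at these sites, so nothing is read from that order. All 10 were also CTCFL ID, CTCF ID, CLC ID and CLL ID sites. The sequences of 3 of them are shown as further examples, on the minus strand for Alkbh2 (chr5:114128249-114128278) and Sh3glb1 (chr3:144720510-144720539) and on the plus strand for Rint1 (chr5:23787619-23787648), printed as above with the motif in capitals.
Alkbh2: cagggagaCCGGCAGGGGGCGCtgtgcccg
Rint1: acatccaaCCAGCAGGGGGCGCcacagaac
Sh3glb1: tcggcctcCCTGCAGGGGTCGCtgttccca

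Of the 10 strongest LLC D promoter sites, the same 7 sites of the first kind were joined by Gm15564, Gip and Gm26917, and none had a motif match. Gip encodes an incretin hormone of the gut, and its site is a CA window 1302 bp from the start (chr11:96022849-96023636, 75.0% of steps). Its -log10 q was 16.2 and 17.3 in LLC D and 11.2 and 9.45 in LLC ID, at a site chosen by its D values.

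CA windows gave strong LLC sites too. The 5 strongest in LLC ID, again chosen after the data were seen, had lower -log10 q from 19.5 to 29.5, and all were LLC D sites. The first lies between genes (chr11:41632470-41632864), with 19.9 and 30.7 in LLC D and 30.7 and 29.5 in LLC ID. Another is in an intron of Cog3, a subunit of a Golgi tethering complex (chr14:75710638-75711115), with 16.0 and 19.0 in D and 25.5 and 24.0 in ID. A further site is in an intron of Ninj2 (chr6:120135839-120136620), with 13.9 and 21.1 in D and 19.8 and 19.5 in ID. The 30 bases at the summit are shown for the first and for Ninj2, to let the repeat be read. They lie at chr11:41632638-41632667 and chr6:120136057-120136086, both on the plus strand of GRCm38, and no part is in capitals because neither holds the motif.
chromosome 11 site: acacagatacacacacacacagttatacat
Ninj2: atatatgcacacatatactcacagatactc

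LLC sites were next set beside those of the other proteins. Of the 6621 LLC ID sites, 3692 (55.8%) overlapped a CTCFL ID site, which is 14.7% of the 25097 CTCFL ID sites. With CTCF ID, 2218 (33.5%) overlapped, 7.30% of the 30317 CTCF ID sites. With CLC ID, 2385 (36%) overlapped, 13.3% of the 17876 CLC ID sites. The overlap was highest with CLL ID, the other chimera with CTCFL zinc fingers and a single CTCF end, at 5018 sites (75.8%), 32% of the 15633 CLL ID sites. It was lowest with LCL ID, which has CTCF zinc fingers, at 27.3% of LLC ID and 5.18% of LCL ID sites. Where an overlap of at least 50% of both sites was asked for, 33.2% of LLC ID sites were left at CTCFL ID, 14.4% at CTCF ID and 11.7% at CLC ID.

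LLC D sites overlapped the CTCF ID, CLC ID and LCL ID sets less than LLC ID sites did. Of the 3305, 52.8% overlapped CTCFL ID (6.96% of that set), 18.3% CTCF ID (2.01%), 22.3% CLC ID (4.12%) and 7.66% LCL ID (0.726%). With CLL ID the share was 76.4% (16.2% of CLL ID), about that of LLC ID. Between D sets, LLC D shared 39.2% of its sites with CLL D, which is 68.1% of the CLL D sites, 52.2% with CLC D (22.8%), 29.9% with LCL D (3.59%), 26.4% with CTCFL D (3.92%) and 23.1% with CTCF D (2.06%). LCL was thus not the lowest among the D sets. LLC ID sites overlapped CLC D (51.7%) and CLL D (24.3%) no more than LLC D sites did. They overlapped LCL D (40.3%), CTCFL D (38.3%) and CTCF D (37.2%) more.

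These overlaps differed between the kinds of LLC sites. Outside CA windows, 94.9% of the LLC ID sites overlapped a CTCFL ID site, 93.6% a CTCF ID site, 94.0% a CLC ID site, 96.5% a CLL ID site and 92.9% an LCL ID site. With a motif match, the shares lay between 99.4% (CTCF ID, LCL ID) and 99.7% (CTCFL ID, CLL ID). In CA windows, 42.9% overlapped CTCFL ID, 13.7% CTCF ID, 16.9% CLC ID, 5.72% LCL ID and 69.0% CLL ID. The sites with the motif were therefore places where every other transgene bound, and the proteins came in the same order inside and outside CA windows, with wider gaps inside. Sites of the mock-treated controls labelled 48 h overlapped 57.7% (CTCFL) and 47.8% (CTCF) of the LLC ID sites in CA windows, more than the CTCFL ID and CTCF ID sites labelled 24 h. Outside CA windows the order of these controls turned, with 81.5% (CTCFL) and 91.2% (CTCF). Time of treatment and experiment cannot be told apart there.

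**Figure D2:**
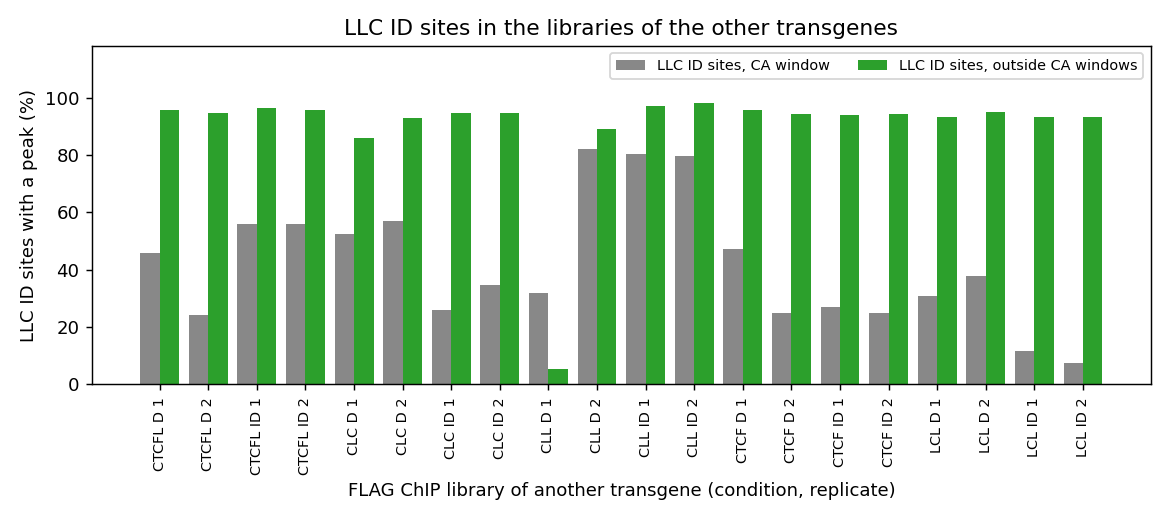
Share of LLC ID sites (percent) with a peak in each of the 20 libraries of the other transgenes, with gray bars for the 4980 sites in CA windows and green bars for the 1641 sites outside them. Green bars lie between 85.9% and 98.0% except in CLL D replicate 1 (5.48%), and gray bars run from 7.31% (LCL ID replicate 2) to 82.1% (CLL D replicate 2).

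By single library, the sites outside CA windows had a peak in 85.9% to 98.0% of cases in 19 of the 20 libraries, and in 5.48% in CLL D replicate 1, the smallest list. In all 19 of these libraries at once, a peak was present at 1265 of the 1641 sites (77.1%). In CA windows this held for 82 of 4980 sites (1.65%), and the median such site had a peak in 8 of the 20 libraries.

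To see which CTCF and CTCFL sites LLC reached, the ID sites of both proteins outside CA windows were divided into 3 classes. Of the 15766 CTCFL ID sites that overlap a CTCF ID site, 1539 (9.76%) were LLC ID sites. Of the 6072 CTCFL ID sites without CTCF ID, 47 (0.774%) were, and of the 12902 CTCF ID sites without CTCFL ID, 15 (0.116%). Outside CA windows, LLC ID was thus found almost only in the shared class. LLC D did not show this. It was at 85 sites of the shared class (0.539%) and at 40 of the CTCFL ID sites without CTCF ID (0.659%). It was also at 12 of the CTCF ID sites without CTCFL ID (0.0930%). The LLC ID shares depended on the library. Peaks of LLC ID replicates 1 and 2 covered 10.9% and 21.0% of the shared class. They covered 1.32% and 1.61% of the CTCFL ID sites without CTCF ID, and 0.171% and 0.295% of the CTCF ID sites without CTCFL ID. CLL ID was present at 58.4%, 14.5% and 0.612% of these classes, and CLC ID at 82.9%, 35.7% and 5.22%. At the promoters among the CTCFL ID sites without CTCF ID, LLC ID was found at 10 of 3306 sites (0.302%), CLL ID at 12.8% and CLC ID at 33.2%.

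Within the shared class outside CA windows, LLC ID was found mainly where CTCFL was strongest. This class was divided into 5 equal groups by the lower -log10 q of CTCFL ID. LLC ID sites covered 40.1% of the strongest group, with CTCFL -log10 q of 37.6 or more, and 6.44%, 1.24%, 0.507% and 0.539% of the following groups. In the strongest group, peaks of the single libraries covered 1.14% and 17.2% in LLC D and 42.5% and 71.2% in LLC ID, so every ID library lay above every D library. CLL ID covered 99.1% and CLC ID 99.8% of that group. Among CTCFL ID sites without CTCF ID, LLC ID covered 0.412% of the strongest group, with CTCFL -log10 q of 13.8 or more, where CLL ID covered 48.1% and CLC ID 77.4%, and 0.329%, 0.988%, 1.15% and 0.988% of the following groups. Single libraries differed there. Peaks of LLC ID replicate 2 covered 3.21% of the strongest group and 0.658% to 1.57% of the others, and those of LLC D replicate 2 2.88% and 0.741% to 2.22%. Replicate 1 covered 0.741% of the strongest group in ID and 0.0823% in D, less than the weakest group (2.06% and 1.32%). In CA windows, LLC ID covered 68.8% of 2222 CTCFL ID sites without CTCF ID and 54.9% of 1037 with it, although CTCFL was weak at them (median lower -log10 q of 5.09 and 8.19). The strengths of both classes differ, so equal groups are not equal in CTCFL signal.

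**Figure D3:**
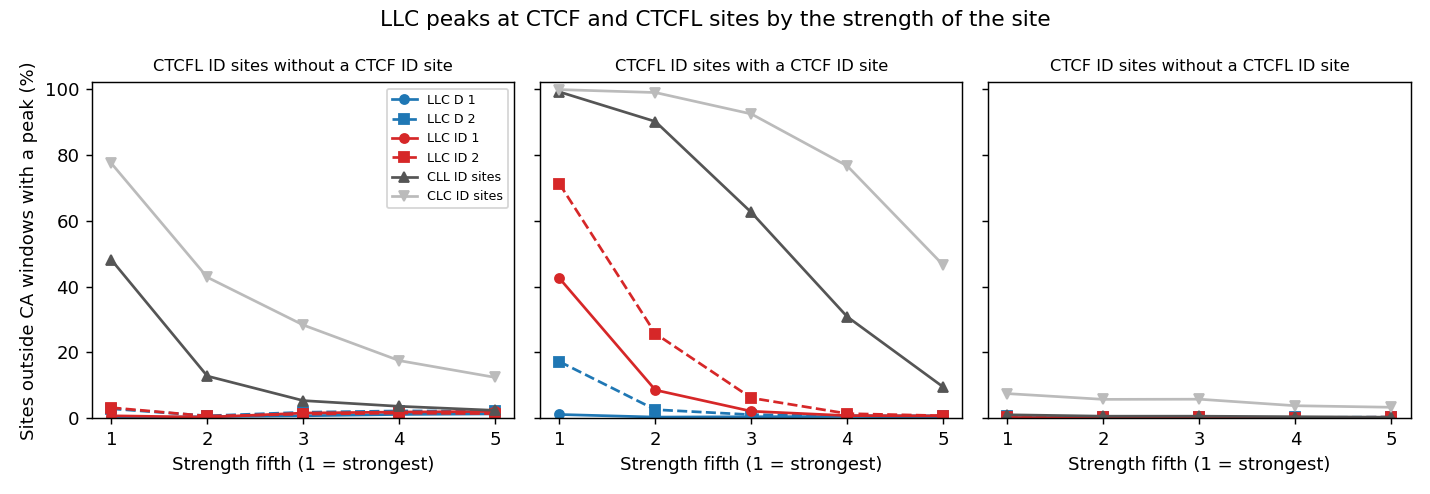
Share of CTCF ID and CTCFL ID sites outside CA windows (percent) with a peak of each LLC library (blue D, red ID) or a CLL ID or CLC ID site (gray lines), in 3 classes of sites and in 5 equal groups of site strength by -log10 q, 1 being the strongest. In the shared class, the strongest group has LLC ID peaks at 42.5% and 71.2% of its sites and LLC D peaks at 1.14% and 17.2%.

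LLC sites were at promoters less often than the sites of most other sets. The promoter share of control windows was not measured, so LLC is read against the other transgenes alone. In LLC ID, 1092 sites (16.5%) were at promoters, 1.24% in exons, 40.7% in introns and 41.6% between genes. In LLC D, 381 sites (11.5%) were at promoters, 0.393% in exons, 42.9% in introns and 45.2% between genes. Promoters held 31% of CTCFL ID, 27.7% of CLC ID, 23.0% of CLL ID, 21.0% of CTCF ID and 31% of LCL ID sites, so the LLC shares were the lowest among the 6 transgenes together with that of CLL D (12.9%). By library, over all peaks, the share was 14.7% and 16.4% in LLC ID and 29.9% and 31.3% in CTCFL ID, but 18.8% and 21.5% in the mock-treated CTCFL libraries labelled 48 h, close to LLC ID. With a window of 1 kb, promoters held 2.81% of LLC D and 6.87% of LLC ID sites. This again differed by kind of site. Outside CA windows 540 of 1641 LLC ID sites (32.9%) were at promoters, against 33.7% for CTCFL ID, 28.8% for CLC ID, 29% for CLL ID and 21.4% for CTCF ID sites taken likewise. In CA windows the share was 11.1% for LLC ID and 12.8% for CTCFL ID.

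The promoter share was compared over libraries, taking from each the 2189 peaks of highest -log10 q, the size of the smallest list. It was 12.3% and 14.1% in the LLC D libraries and 18.7% and 26.5% in the LLC ID libraries, a mean of 17.9% ± 6.36 (SD, n = 4). Each SD here takes D and ID libraries together, so it holds the difference between treatments as well as that between replicates. CTCFL libraries had 42% ± 3.89 (SD, n = 4), LCL 45.3% ± 1.74 (SD, n = 4) and CLC 32.3% ± 3.33 (SD, n = 4), and all 4 LLC libraries lay below all libraries of each. The difference was -24.1 points from CTCFL, -27.4 from LCL and -14.4 from CLC (two-sided exact permutation test, p = 0.0286 each, the smallest that 4 against 4 can give, adjusted p = 0.0714 over 10 tests). From CTCF (28.8% ± 2.46, SD, n = 4) it was -10.9 points (exact permutation p = 0.0571, adjusted p = 0.114), and 3 of 4 LLC libraries lay below all of CTCF. From CLL (29.6% ± 11.6, SD, n = 4) it was -11.7 points (exact permutation p = 0.143, adjusted p = 0.159). After adjustment no difference passed 0.05. Without LLC ID replicate 2, the differences from CTCFL (-27.0), LCL (-30.2), CLC (-17.3) and CTCF (-13.8) passed, each with an adjusted exact permutation p = 0.0408, as they did with all peaks of every library. That leaves 2 D and 1 ID libraries of LLC against 2 of each, which lowers the LLC mean, and with labels permuted within D and within ID no adjusted exact permutation p was below 0.0926, where 0.0556 is the smallest p possible.

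The motif share of the same top peaks varied more between LLC libraries. It was 0.594% and 3.88% in LLC D and 21.1% and 48.7% in LLC ID, so the treatments did not overlap. The mean of these libraries was 18.6% ± 22.0 (SD, n = 4), an SD that again holds the difference between treatments. The difference was -57.5 points from CTCF (76.0% ± 17.7, SD, n = 4), with all 4 LLC libraries below all of CTCF (exact permutation p = 0.0286, adjusted p = 0.0714). It was -35.8 points from CTCFL (54.3% ± 9.31, SD, n = 4; exact permutation p = 0.0857, adjusted p = 0.143) and -43.4 from CLL (61.9% ± 41.1, SD, n = 4; exact permutation p = 0.114, adjusted p = 0.159). From LCL (41.1% ± 5.69, SD, n = 4) it was -22.5 points (exact permutation p = 0.143, adjusted p = 0.159) and from CLC (39.1% ± 14, SD, n = 4) -20.6 points (exact permutation p = 0.171, adjusted p = 0.171). None passed 0.05 after adjustment, while without LLC ID replicate 2 the differences from CTCFL (-45.8), CTCF (-67.5) and LCL (-32.5) did, each with an adjusted exact permutation p = 0.0408, with the same imbalance of treatments and the same lowest adjusted p of 0.0926 when permuted within treatments.

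With peaks outside CA windows alone, no difference in promoter or motif share passed after adjustment. Taking 129 top peaks outside CA windows from each library, promoters held 30.2% and 51.2% in LLC D and 45.7% and 55.8% in LLC ID. The CTCFL libraries had 55.8%, 58.9%, 42.6% and 41.9%, and those of CTCF 33.3%, 18.6%, 27.1% and 39.5%. The difference from CTCF turned its direction, at 16.1 points (exact permutation p = 0.0857, adjusted p = 0.429), and that from CTCFL was -4.07 points (exact permutation p = 0.629, adjusted p = 0.786). From LCL it was -14.5 points, with all 4 LLC libraries below all of LCL (exact permutation p = 0.0286, the smallest possible, adjusted p = 0.286). The motif was present in 10.1% and 37.2% of these peaks in LLC D and in 70.5% and 79.8% in LLC ID, so that here too both ID libraries lay above both D libraries.

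Of 20 germline genes examined, 4 had an LLC ID site at a promoter or within the gene, 3 of them outside CA windows, against 6.32% and 2.44% of all 53843 genes. Genes of the lists differ in length and some share sites, so these counts describe the lists. Stra8, described above, was the strongest. Ctcfl itself (ENSMUSG00000070495) had a site across its start (chr2:173119386-173119931), with no peak in LLC D replicate 1, a -log10 q of 12.8 in D replicate 2 and of 5.05 and 9.09 in ID. That site was in CTCFL ID (lower -log10 q of 142) and not in CTCF ID. A second site of Ctcfl in an intron (chr2:173097275-173097741) had the motif, no peak in either D replicate, and 4.79 and 40.5 in ID. Gal3st1, a sulfotransferase needed in spermatogenesis, had a motif site in an intron (chr11:3992266-3992655) without a CTCF ID site, with no peak in D replicate 1, 13.5 in D replicate 2 and 7.08 and 9.30 in ID. Mael, which acts in transposon silencing in the germline, had a CA window site with 2.17 and 3.30 in D and 1.91 and 6.86 in ID. CTCFL ID had sites at 10 of the 20 genes and CTCF ID at 9, against 25.2% and 24.9% of all genes.

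Among loci known for CTCF insulators (H19, Igf2 and other imprinted genes, Xist, Tsix, Myc, and the Hox and clustered protocadherin genes), 22 of 104 genes (21.2%) had an LLC ID site, but 1 (0.962%) outside CA windows, against 6.32% and 2.44% of all genes. That gene was Meg3, an imprinted noncoding RNA, whose intron site (chr12:109542872-109543250) had the motif, no peak in D replicate 1, 6.18 in D replicate 2 and 7.26 and 32.8 in ID. The other 21 were Hoxb6, with a CA window upstream (chr11:96290373-96290696), and genes of the gamma protocadherin cluster that share 1 CA window, which lies upstream of Pcdhgc4 and in introns of the others. CTCF ID had sites at 67 of the 104 genes and CTCFL ID at 56, many of which share sites, against the same 24.9% and 25.2% of all genes.

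Of 16 genes for cohesin and its partners, Pds5b and Esco1 had an LLC ID site, both centered just upstream of the gene and with the motif. Pds5b, a regulator of cohesin release, had no peak in either D replicate and 6.42 and 25 in ID (chr5:150673524-150673875). Esco1, an acetyltransferase of cohesin, had none in D replicate 1, 6.93 in D replicate 2 and 6.42 and 22.5 in ID. Of 20 pluripotency genes, Sox2 and Nr5a2 had LLC ID sites. The Sox2 site, 2457 bp from the start (chr3:34647803-34648093), was outside CA windows, without the motif, absent from both D replicates and at 3.28 and 8.98 in ID. These genes are named for a site in ID, and no gene of either list had an LLC D site, so the choice favours higher values in ID. The counts stand beside 6.32% of all genes with an LLC ID site and 2.44% outside CA windows. Nr5a2, an orphan nuclear receptor gene, had a CA window site in an intron.

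A last list held 20 genes picked with their response to these transgenes in view, so it is no independent choice. An LLC ID site was found at 7 of them, outside CA windows at 4, against 6.32% and 2.44% of all genes. CTCFL ID had sites at 16 and CTCF ID at 17 of the 20. Rapgef1, an exchange factor for Rap GTPases, had the strongest (chr2:29619395-29619836), with no peak in D replicate 1, 19.7 in D replicate 2 and 16.1 and 32.6 in ID. Mrps33, of the mitochondrial ribosome, had none in D replicate 1, 10.1 in D replicate 2 and 9.81 and 19.5 in ID. Steap1, a metalloreductase of the cell surface, had no peak in either D replicate and 10.5 and 13.8 in ID, and Zbtb45 none in D and 1.31 and 5.08 in ID. The LLC ID sites of Adamts2, Adamts15 and Prkcb were in CA windows within introns. Adamts2 also had an LLC D site outside CA windows (27.0% of steps). The motifs at Ctcfl, Meg3, Pds5b and Steap1 are shown because these sites span a germline gene, an imprinted locus, a cohesin regulator and a gene of the last list, with the motif in capitals. They lie at chr2:173097446-173097475, chr12:109543030-109543059 and chr5:5749370-5749399 on the minus strand for Ctcfl, Meg3 and Steap1, and at chr5:150673685-150673714 on the plus strand for Pds5b.
Ctcfl: aagtggagCCTGTAGGTGGCGCtgtgattt
Meg3: catagagaCCGCTAGGGGGCGCgcggcccg
Pds5b: ccgtgcggCCGGTAGGGGGCGCtgagaacc
Steap1: gctggtctCCGGCAGGGGGCGCtgtgcgcg

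Places found with LLC alone were few when every peak of the 24 libraries compared was counted. A site counted as such when no peak of the 20 libraries of the other transgenes or of 4 mock-treated CTCF and CTCFL libraries touched it. There were 74 such sites in LLC ID (1.12%) and 21 in LLC D (0.635%), and 2 were common to both treatments. The numbers rest on counting single peaks: where only sites in both replicates of the other groups counted, they were 721 in ID and 259 in D, and with peaks of 1 LLC replicate as sites 718 to 1001 in ID and 95 to 1201 in D. Of the 74, 71 were in CA windows, none had the motif and 11 were at promoters, and all 21 in D were in CA windows. They were weaker than the rest, with a median lower -log10 q of 3.04 against 4.28 in ID and 3.19 against 4.18 in D. The strongest in ID lies between genes (chr2:45351127-45351424), with 5.59 and 8.15 in ID and no peak in D. The next, upstream of the small nuclear RNA gene Gm25721 (chr5:103657785-103658063), had 5.93 and 5.11 in ID and 12 in D replicate 2, so it was not particular to ID. The others of the 5 strongest were between genes on chromosome 10 (chr10:118298865-118299117), in an intron of Sgcd, a sarcoglycan gene (chr11:47887799-47888084), and in an intron of the noncoding gene AC103362.1. These 3 had a -log10 q of 5.08 in ID replicate 2, and each had a peak in D replicate 2. The 30 bases at the summit of the first, of the chromosome 10 site and of the Sgcd site are shown to let the repeats be read (chr2:45351278-45351307, chr10:118298973-118299002 and chr11:47887936-47887965, plus strand, no motif and so no capitals).
chromosome 2 site: cagagtcacacacagagtcacacacataca
chromosome 10 site: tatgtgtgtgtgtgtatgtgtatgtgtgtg
Sgcd: tgtgtgtgtgtgtctgtgcacctgtggtgt

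LLC has no RNA-seq here, so the genes at its promoter sites were read in untreated cells of the CTCF, CTCFL, CLC and LCL lines (9 libraries of normalized counts). In bulk RNA, fewer cells of a type and less RNA per cell cannot be told apart. Markers of embryonic stem cells were high in all 9 libraries, with Nanog from 33428 to 46838 and Pou5f1 from 16289 to 30441 normalized counts. Some markers of other cell types were present too. The endoderm genes differed between the libraries of these lines, with mean Gata6 of 1052 in CTCFL and 1030.5 in CTCF but 38.4 in LCL and 36.7 in CLC. Gata4 (287 to 1838 over libraries) and Sox17 (21.4 to 323) were likewise higher in the CTCFL and CTCF lines. The column names of the LCL and CLC libraries carry an added label that those of CTCFL and CTCF lack. The study's methods do not explain this label. RNA differences between CTCFL or CTCF and LCL or CLC therefore cannot be assigned to the line rather than to what the label marks. Neural Sox1 ran from 179 to 562, and Thy1 (178 to 768) and Col1a1 (73.4 to 413) of fibroblasts were found in every library, while neural Pax6 (8.08 to 29) and fibroblast Col1a2 (1.19 to 26.7) were low. T (at most 34.6) and Cdx2 (at most 16.2) were at 0 in their lowest library, and Mixl1 was at 10.3 or more. The part of these differences in the levels below was not tested. Of the genes with an LLC ID promoter site, 47.6% had a mean normalized count of at least 10, against 33% of all genes, and their median level per kb of exon was 4.44 against 0.172. Genes with an LLC promoter site in a CA window were close to all genes, at 31.3% and a median of 0.358 per kb. Genes with a site outside CA windows stood higher, at 60.8% and 20.8 per kb, and those with a motif match at 62.2% and 23.2 per kb. Genes with an LLC D promoter site were at 35.8% and 1.14 per kb. For CTCFL ID promoter sites the values were 62.3% and 27.6 per kb, and for CTCF ID 52.1% and 8.11 per kb. A higher level than that of all genes was thus not particular to LLC. By line the median for LLC ID sites outside CA windows ran from 12.5 (CLC) to 29.4 (CTCFL) per kb, with 57.2% to 63.9% of genes at 10 or more. At the germline gene Stra8 and at other named genes, the effect of LLC on RNA was not measured.

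RAD21, a cohesin subunit, was examined in the CTCF, CTCFL and CLC lines, while its libraries of the LCL line were not used here. Its peaks were looked for at LLC ID sites, by an overlap of at least 1 bp. The answer differed between replicates. In the CTCF line, RAD21 was found at 63.2% and 7.31% of LLC ID sites in D and at 54% and 3.22% in ID, for replicates 1 and 2. In the CTCFL line the shares were 59.0% and 1.19% in D and 39% and 1.22% in ID, and in the CLC line 13.9% and 10.7% in D and 18.9% and 2.10% in ID. Over all LLC ID sites, replicate 1 was the higher in each of these 6 pairs. Outside CA windows replicate 2 was higher in CLC D (35.8% against 7.31%) and CLC ID (7.74% against 6.46%). The RAD21 lists differed widely in size, from 181 peaks (CTCFL ID replicate 2) to 22765 (CTCF D replicate 1), and in CLC D replicate 2 had 10771 against 1491. For comparison, RAD21 of the CTCF line was at 50.1% and 11.4% of CTCF ID sites in D, for replicates 1 and 2. In ID it was at 8.44% and 2.41% of them. In the D libraries of the CTCF line, RAD21 was at 62.7% (replicate 1) and 1.61% (replicate 2) of the LLC ID sites in CA windows, and at 64.8% and 24.6% of those outside. The order turned in other libraries of replicate 1, with 63.8% in CA windows and 24.3% outside in CTCF ID, 46.4% and 16.4% in CTCFL ID, 16.1% and 7.31% in CLC D, and 23.0% and 6.46% in CLC ID, but not in CTCFL D (58.0% and 62.1%). In every library of replicate 2 the share was lower in CA windows (0.161% to 2.41%) than outside (3.84% to 35.8%). Cohesin in cells that express LLC was not analysed here, and these shares rest on the replicate taken.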

How the data were processed

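FLAG ChIP-seq peak lists of 24 libraries of 6 transgenes and of 4 mock-treated libraries were used, with RAD21 peak lists and 9 untreated RNA-seq columns, and 29 other RNA columns were not used. Samples were grouped by their titles, and the mock-treated ones by their source names. Bowtie2 alignment to GRCm38/mm10 by the authors was followed by removal of multiply mapped and duplicate reads and by MACS peak calling, library by library, at the same stated q threshold for all FLAG libraries. The control library is not given in the sources used here. The submitters' processing notes name Trim Galore 0.4.4 and SAMtools 1.3. Fold enrichment and -log10 q values were deposited by the authors as MACS wrote them. RNA values are a signal that the authors made with STAR, as gene counts divided by a size factor per library. Reads behind the RNA values, estimated from the step between low values, ranged from 18820833 to 48070202 a library, while ChIP depth is not known.

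Overlapping peaks of a list were merged, and sites were merged regions with a peak in both replicates (1 bp). Promoters were within 3 kb of 75451 start positions of 53843 genes in GENCODE M21 (basic set), and 46402 of the 52459 RNA symbols matched it. Sequences were read from GRCm38 as RefSeq gives it. The motif matrix was refined in 10 rounds, with a pseudocount of 0.5 a base, on 16804 CTCF ID sites that overlap CTCFL ID, and searched within 50 bp of summits. Its threshold is the 95th percentile of windows 1000 bp from the same sites. Values per library were compared with two-sided exact permutation tests and Benjamini-Hochberg adjustment over 10 tests. The scripts were tested on simulated data. Python 3.11.15, numpy 2.4.6, scipy 1.17.1, pysam 0.24.0 and matplotlib 3.10.9 were used.

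The genes named are those of the 10 strongest LLC ID and LLC D promoter sites, the 5 strongest LLC ID sites without a peak in the 24 other FLAG libraries searched, which leave out the RNase-treated ones, and genes of 5 lists with an LLC site. The members and lists were chosen with earlier results of these data known. CA windows, a -log10 q of at least 2, peaks with a motif match, motif values of single replicates, and the strongest sites with a motif match or in CA windows were chosen after seeing the data. Alternatives were a -log10 q of at least 5, an overlap of 50%, a promoter window of 1 kb, protein-coding starts, other motif windows and matrices, an RNA minimum of 50, equal numbers of peaks, all peaks, the replicate number as a block and leaving out each replicate.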

Additional observations from a re-analysis of the deposited data

Results flagged for a closer look

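The promoter share of the 2189 strongest peaks was higher in ID than in D for LLC, CLC and CLL, and lower for CTCFL and LCL. For LLC it was 12.3% and 14.1% in D and 18.7% and 26.5% in ID, a difference of 9.43 points between means, and both ID libraries lay above both D libraries. For CTCFL the difference was -6.46 points and for LCL -2.22 points, with every ID library below every D library of the same transgene. The rise was not particular to LLC: CLC had 28.5% and 30.9% in D and 33.7% and 36.2% in ID, and CLL 12.3% and 34.4% in D and 35.8% and 36% in ID, again with both ID libraries above both D libraries. In CTCF the treatments overlapped. The LCL order held for the strongest peaks alone, since over all peaks LCL had 28.9% and 27.5% in D and 30.7% and 31.6% in ID. The difference between LLC and these transgenes was not tested. The share of the same LLC peaks in CA windows was 94.4% and 90.9% in D and 72.3% and 42.8% in ID, and its part in the result was not tested. With 129 top peaks outside CA windows, the LLC treatments overlapped (30.2% and 51.2% in D, 45.7% and 55.8% in ID), as did those of CLC (57.4% and 50.4% in D, 46.5% and 51.9% in ID), and LCL was not lower in ID (58.1% and 60.5% in D, 60.5% and 62.0% in ID). CLL still had both ID libraries above both D libraries (32.6% and 49.6% in D, 55.0% and 58.9% in ID). CTCFL still had both ID libraries below both D libraries (55.8% and 58.9% in D, 42.6% and 41.9% in ID).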

How the results depend on the processing

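Of 235 alternative values for 43 results, 138 stayed on their side of the threshold or within the tolerance set for them (the spread of replicates, or 1.5 times for a count), 83 moved further and 14 differences passed 0.05 after adjustment that had not; where no reason is given below, the cause was not tested. ChIP depth is unknown, LLC has 2 replicates a treatment, and LLC D replicate 1 with 3731 peaks limits every LLC D site. The test of 2 against 2 libraries cannot go below 0.333 and labels permuted within D and within ID cannot go below 0.0556, so neither says anything about stability. With 3 against 4 libraries the smallest p is 0.0286. Replicates share only a number: with the replicate number as a block, over 2 pairs, the difference in log2 peak number was again 0.734 (exact permutation p = 0.5, the smallest possible).

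With a -log10 q of at least 5, which takes fewer peaks, LLC had 1091 sites in D and 2476 in ID, 55.3% of D sites were shared, 13.9% of D and 20.5% of ID sites were at promoters, and 3 (D) and 5 (ID) were found with LLC alone. With this limit in every set, LLC ID overlapped CTCFL ID at 62.9% (7.55% of CTCFL ID), CTCF ID at 40.7% and CLC ID at 42.9%. With 3731 top peaks from each LLC library there were 1964 sites in D and 1822 in ID, and 38.1% of D sites were shared. A -log10 q of at least 2, chosen like the CA windows after seeing the data, moved none of the results it was run for (peak and site numbers, sharing, overlaps, promoter shares of sites and sites found with LLC alone) outside its tolerance.

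An overlap of at least 50% of both sites is met less often, and gave 33.2% of LLC ID sites at CTCFL ID (8.75% of CTCFL ID), 14.4% at CTCF ID (3.14% of CTCF ID) and 11.7% at CLC ID (4.35% of CLC ID). Where only sites in both replicates of the other groups counted, 259 LLC D and 721 LLC ID sites were found with LLC alone.

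Outside CA windows, LLC had 159 sites in D and 1641 in ID. With both sets taken so, 54.1% of D and 5.30% of ID sites were shared, and 6.95% of CTCFL ID sites overlapped LLC ID. LLC ID overlapped CTCFL ID at 94.9%, CTCF ID at 93.6% and CLC ID at 94.0%, 30.2% of D and 32.9% of ID sites were at promoters, and 0 (D) and 3 (ID) were found with LLC alone. The motif, with its threshold set anew on windows near these sites, was at 7.55% in D and 73.6% in ID. RAD21 of the CLC line was at 7.31% (D replicate 1), 35.8% (D replicate 2) and 6.46% (ID replicate 1), and 60.8% of promoter genes reached 10 normalized counts, with a median of 20.8 per kb. With CA windows of at least 50% of steps, the remaining sites were 508 in D and 2141 in ID, with overlaps of 83.8% (CTCFL ID), 74.6% (CTCF ID) and 75.4% (CLC ID) and promoter shares of 17.7% in D and 27.7% in ID.

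A promoter window of 1 kb gave promoter shares of 2.81% in D and 6.87% in ID, and promoter genes with 55.6% at 10 normalized counts and a median of 12.4 per kb. Starts of protein-coding genes alone gave 5.45% in D and 9.35% in ID. A minimum mean of 50 left 36.4% of promoter genes. A motif window of 25 bp on either side gave a motif at 11.3% of LLC ID sites with A at position 3 in 61.1%. A window of 100 bp gave A in 65.8% (ID) and 63.2% (D), and a matrix from CTCFL ID sites without CTCF ID 63.0% (ID) and 37.5% (D).

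With all peaks of every library, the promoter difference passed against CTCFL (-19.6 points), CLC (-10.5), CTCF (-7.77) and LCL (-15.8), and the motif difference against CTCFL (-22.6), CTCF (-45.3) and LCL (-15.6), each with an adjusted exact permutation p = 0.0408. Leaving out 1 LLC library at a time, the promoter difference ran from -27.0 to -22.2 points against CTCFL, -17.3 to -12.5 against CLC, -13.8 to -9.03 against CTCF and -30.2 to -25.5 against LCL. The motif difference ran from -45.8 to -29.8 against CTCFL, -67.5 to -51.5 against CTCF and -32.5 to -16.5 against LCL. In each the largest difference, without LLC ID replicate 2, was the one that passed, which leaves LLC with more D than ID libraries. With equal numbers of peaks outside CA windows none passed, the promoter difference from CTCF turned to 16.1, that from LCL was -14.5 (exact permutation p = 0.0286, the smallest possible), and the motif difference was 0.775 from LCL and 0 from CLC; the other differences kept their direction.

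With the peaks of either LLC replicate alone as sites, where peaks of a single library need no partner, there were 3731 to 11450 sites in D and 9441 to 12519 in ID. Shared sites made up 62.7% to 77.9% of D and 30.8% to 57.6% of ID. LLC ID overlapped CTCFL ID at 44% to 47.2% (16.3% to 23.3% of CTCFL ID), CTCF ID at 26.1% to 33.1% (8.06% to 13.6% of CTCF ID) and CLC ID at 28.1% to 34.8% (14.7% to 24.1% of CLC ID). Promoter shares were 11.6% to 12.6% in D and 14.7% to 16.4% in ID, and 95 to 1201 (D) and 718 to 1001 (ID) sites were found with LLC alone. The motif was at 0.643% to 3.97% in D and 12.7% to 20.8% in ID, with A at position 3 in 50.8% to 58.3% and 65.0% to 65.9%.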
